A study of Mus musculus with 224 samples.

Results

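Synaptic vesicle release machinery was followed through 9 genes in the brains of mice given chronic intermittent ethanol (CIE) vapor, voluntary ethanol drinking, both or neither. The genes were Rph3a, Cplx1, Cplx2, Syt1, Syt4, Snap25, Stx1a, Vamp2 and Unc13a. Members were the array probesets, sets of short probes read as 1 value, whose platform gene symbol was 1 of these 9. There were 21 such probesets among 45037, for 9 of 18193 genes with a symbol of their own, and all 21 were measured in every region.

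The mice were male C57BL/6J animals bought at 10 weeks of age. CIE Drinking mice inhaled ethanol vapor for 16 h per day on 4 days per cycle and, after 72 h of abstinence, had 2 h sessions with a choice of 15% ethanol or water. CIE NonDrinking mice had the vapor and water alone. Air Drinking mice sat in chambers with air and had the drinking sessions, and Air NonDrinking mice had air and water alone. Each chamber session of the CIE groups was preceded by an injection of 1.6 g/kg ethanol with 1 mmol/kg pyrazole, which inhibits alcohol dehydrogenase, and the Air groups received pyrazole in saline, so all 4 groups carried pyrazole. Both Drinking groups had 6 weeks of baseline drinking before the first cycle. By the study's account, Drinking mice were closer to their last ethanol at sacrifice than CIE NonDrinking mice. Of 224 Affymetrix arrays, 8 to 12 covered each group in each brain region. The regions were the medial prefrontal cortex (PFC), the hippocampus (HPC), the nucleus accumbens (NAC), the central amygdala nucleus (CeA) and the bed nucleus of stria terminalis (BNST).

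At a presynaptic terminal, transmitter-filled vesicles dock at the active zone, are primed, and fuse with the plasma membrane when calcium enters. Fusion is driven by a SNARE complex that joins Vamp2 on the vesicle to Stx1a and Snap25 on the plasma membrane. Synaptotagmin 1 (Syt1) is the fast calcium sensor, complexins (Cplx1, Cplx2) hold and assist the assembled complex, Munc13-1 (Unc13a) primes vesicles, and rabphilin 3A (Rph3a) binds Rab3 and Snap25. Synaptotagmin 4 (Syt4) is an unusual family member in which a calcium-binding residue is replaced. Acute ethanol is known to alter transmitter release at many central synapses.

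Of the 9 genes, 6 passed an adjusted p of 0.01 in at least 1 group comparison or treatment term, as did 17.9% of all genes and 29.9% of the genes with 2 or more probesets. The 9 had 2.33 probesets each on average, and all genes 1.92. Of 630 pairs of probeset and comparison (6 comparisons of groups in 5 regions), 18 passed, 17 with the first-named group higher and 1 lower, against 0.768% of such pairs over all probesets (7469 higher and 2810 lower). The 17 rises all had CIE Drinking mice as the higher group. They involved Syt1 and Rph3a most often, then Cplx2, Vamp2 and Unc13a. No probeset of Cplx1, Snap25 or Stx1a passed. Members and pathway lists were chosen with earlier results of these data known, and the rises within a region share the same CIE Drinking arrays. Shares of calls set beside those of all probesets or genes are therefore a description and not a test of the members. All values below are log2 array values, so a difference of 1 is a doubling of signal, and adjusted p-values are limma's with Benjamini-Hochberg adjustment over all probesets of a region and comparison.

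The promoters of the genes with rises in more than 1 region are shown as a description, and their part in the rises was not tested. Entries of 6 of the 9 genes were used from the RefSeq promoter table of build GRCm38.p6, which spans 250 bases before to 50 after a transcription start. The other 3 genes had no entry or no sequence used. The first entry of Rph3a, Syt1 and Cplx2 is given, with the GC box letters GGGCGG, in either strand, in capitals. It lies on the minus strand at chr5:121010043-121010342 for Rph3a, on the minus strand at chr10:109010926-109011225 for Syt1 and on the plus strand at chr13:54302306-54302605 for Cplx2.
Rph3a: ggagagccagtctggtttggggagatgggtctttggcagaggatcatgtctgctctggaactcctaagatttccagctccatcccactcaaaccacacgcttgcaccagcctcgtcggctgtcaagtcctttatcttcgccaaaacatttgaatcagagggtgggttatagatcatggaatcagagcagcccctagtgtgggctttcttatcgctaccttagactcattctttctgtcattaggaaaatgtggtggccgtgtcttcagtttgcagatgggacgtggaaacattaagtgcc
Syt1: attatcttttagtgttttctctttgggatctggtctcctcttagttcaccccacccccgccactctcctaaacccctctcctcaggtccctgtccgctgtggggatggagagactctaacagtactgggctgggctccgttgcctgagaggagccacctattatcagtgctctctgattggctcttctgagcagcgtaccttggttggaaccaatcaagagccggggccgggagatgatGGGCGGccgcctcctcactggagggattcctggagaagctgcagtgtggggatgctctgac
Cplx2: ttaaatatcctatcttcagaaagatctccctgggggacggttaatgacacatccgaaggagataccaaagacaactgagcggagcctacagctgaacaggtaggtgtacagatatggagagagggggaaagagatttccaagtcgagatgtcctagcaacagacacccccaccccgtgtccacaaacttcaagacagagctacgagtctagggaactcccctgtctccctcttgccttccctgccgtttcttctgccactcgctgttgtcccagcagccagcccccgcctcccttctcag
The GC box was found in 35.7% of the 32851 promoters of the table and once in the Syt1 entry, and the letters TGACG of a CRE half-site, in either strand, in 20.8% of the table and in none of the 3 entries. Rph3a and Syt1 have further entries, not shown, of which the second of Rph3a holds 1 GC box. These matches describe letters in a window and are not binding sites.

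Syt1 gave the call with the smallest adjusted p, in the HPC. Its probeset 1431191_a_at lay at 9.89 to 10.47 with a median of 10.12 in the 12 CIE Drinking arrays, against 8.99 to 9.53 with a median of 9.18 in the 8 Air NonDrinking arrays. No CIE Drinking array reached down to an Air NonDrinking array, which held for 1.61% of all probesets in that comparison. The rise was 0.92 (SE 0.13, adjusted p = 2.9e-05). The CIE NonDrinking arrays (9.20 to 9.74, median 9.50) and the Air Drinking arrays (8.73 to 10.23, median 9.64) had medians between these, and the Air Drinking arrays were the most spread and overlapped all other groups. CIE Drinking mice were also above Air Drinking mice by 0.58 (SE 0.12, adjusted p = 0.00355) and above CIE NonDrinking mice by 0.63 (SE 0.12, adjusted p = 0.00922), in the second case again without overlap (0.281% of all probesets). With only the compared groups in the fit the Air Drinking comparison missed the threshold (adjusted p = 0.0352), as did every other probeset of the 549 called there, and with dim probesets left out the CIE NonDrinking comparison did (adjusted p = 0.0137). These comparisons use the same CIE Drinking arrays. The average effect of vapor on this probeset in the HPC was 0.44 (SE 0.09, adjusted p = 0.0033). That of drinking was 0.48 and missed the threshold, where the smallest adjusted p of any member was 0.0105.

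In the CeA the same Syt1 probeset lay at 9.19 to 10.19 (median 9.62) in 12 CIE Drinking arrays, against 7.98 to 9.17 (median 8.58) in 11 CIE NonDrinking arrays. The 2 groups did not overlap, as for 0.223% of all probesets, and the rise was 1.05 (SE 0.15, adjusted p = 4.3e-05). Against the 8 Air NonDrinking arrays (8.05 to 9.25, median 8.79) it was 0.95 (SE 0.17, adjusted p = 2.7e-04), with 10 of 12 CIE Drinking arrays above them all. Against the 12 Air Drinking arrays (8.34 to 9.42, median 8.90) it was 0.80 (SE 0.15, adjusted p = 0.00469, or 0.0106 with only these groups in the fit). The average effect of drinking here was 0.60 (SE 0.11, adjusted p = 0.00158). A second Syt1 probeset, 1421990_at, lay at 8.15 to 9.30 (median 8.61) in CIE Drinking CeA and 7.15 to 8.56 (median 7.76) in CIE NonDrinking CeA, a rise of 0.82 (SE 0.15, adjusted p = 7e-04) with some overlap.

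**Figure D1:**
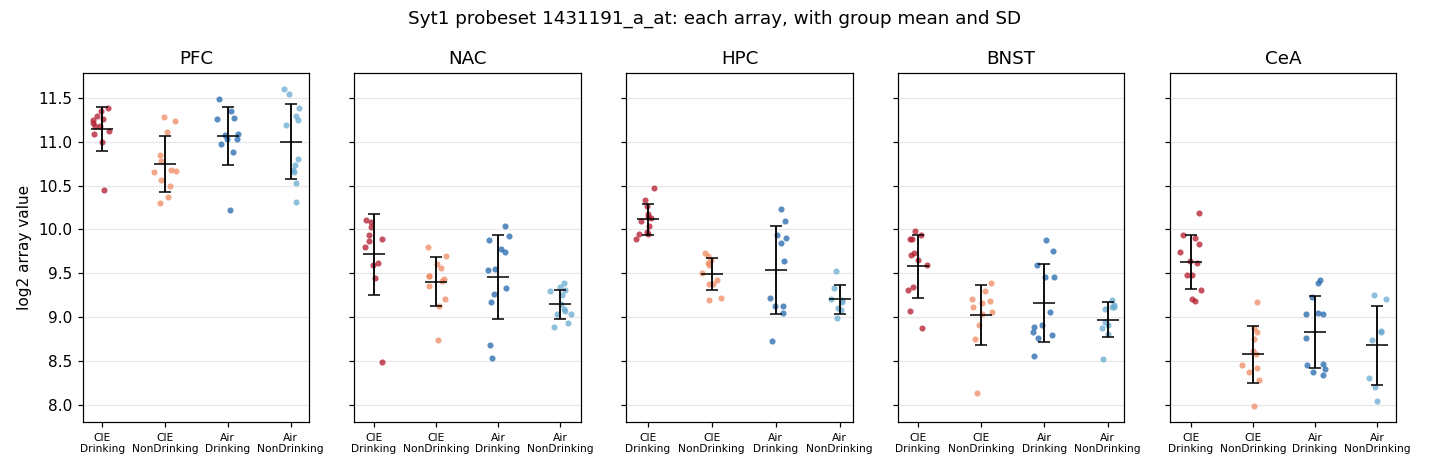
Log2 array value of Syt1 probeset 1431191_a_at in each array (points) by group, with the group mean and SD (bars), in 5 brain regions. In HPC the CIE Drinking arrays start at 9.89, above every Air NonDrinking array, and in CeA they start at 9.19, above every CIE NonDrinking array.

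In the other regions the same Syt1 probeset missed the threshold. CIE Drinking minus Air NonDrinking was 0.57 in the NAC (95% interval 0.27 to 0.86, adjusted p = 0.0128), 0.61 in the BNST (0.32 to 0.90, adjusted p = 0.0105) and 0.15 in the PFC (-0.12 to 0.41, adjusted p = 0.469). Tested directly, the PFC difference was below that of the CeA, with a PFC minus CeA value of -0.80 (SE 0.21, adjusted p = 0.00925, against 2.24% of all probesets).

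The other 2 Syt1 probesets, 1433884_at and 1438282_at, gave no call. The brightest, 1433884_at, at the top of the array range (13.37 on average in the HPC, above 99.7% of probesets), differed by -0.01 between CIE Drinking and Air NonDrinking HPC (95% interval -0.08 to 0.05) and by 0.12 between CIE Drinking and CIE NonDrinking CeA (-0.01 to 0.24). The 1431191_a_at signal averaged 9.63 in the HPC.

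Rph3a was the only member with a call in PFC, NAC, HPC and BNST, and each came from probeset 1449961_at. In the BNST it lay at 9.32 to 10.27 (median 9.91) in 12 CIE Drinking arrays, against 7.77 to 9.68 (median 8.88) in 12 Air Drinking arrays, a rise of 1.13 (SE 0.19, adjusted p = 4.4e-04). Against the 10 Air NonDrinking arrays (8.36 to 9.05, median 8.86) the rise was 1.09 (SE 0.20, adjusted p = 5.4e-04) and the groups did not overlap, as for 0.308% of all probesets. Against CIE NonDrinking (7.92 to 9.44, median 9.24) it was 1.01 (adjusted p = 0.00404), with 11 of 12 CIE Drinking arrays above every CIE NonDrinking array. CIE NonDrinking, Air Drinking and Air NonDrinking BNST averaged 8.90, 8.77 and 8.81.

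In the HPC the Rph3a probeset lay at 8.95 to 9.97 (median 9.63) in CIE Drinking arrays and 8.29 to 8.99 (median 8.76) in Air NonDrinking arrays, a rise of 0.94 (SE 0.20, adjusted p = 0.00136). In the NAC it lay at 7.33 to 8.64 (median 8.01) in 11 CIE Drinking arrays and 6.51 to 7.91 (median 7.02) in 12 Air NonDrinking arrays, a rise of 0.96 (SE 0.20, adjusted p = 0.00113). The groups overlapped in both regions. The gene's other probeset, 1434635_at, differed by -0.02 in these HPC arrays and -0.07 in these NAC arrays, and with the gene's probesets averaged both calls ended, at 0.46 in HPC (adjusted p = 0.0357) and 0.45 in NAC (adjusted p = 0.0772). In the NAC the other ethanol groups also averaged above Air NonDrinking, by 0.81 in CIE NonDrinking (adjusted p = 0.143) and 0.73 in Air Drinking (adjusted p = 0.53). In the CeA, CIE Drinking minus CIE NonDrinking was 0.79 (95% interval 0.35 to 1.23, adjusted p = 0.0277).

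In the PFC CIE NonDrinking was the group with the lowest mean, as it was in the CeA, where it averaged 7.22, against 7.82 in Air Drinking and 7.27 in Air NonDrinking, with neither difference past the threshold. Rph3a 1449961_at lay at 10.31 to 11.40 (median 11.24) in 12 CIE Drinking arrays and 10.13 to 10.67 (median 10.41) in 12 CIE NonDrinking arrays. The rise was 0.67 (SE 0.10, adjusted p = 3.4e-05), with 11 of 12 CIE Drinking arrays above every CIE NonDrinking array. CIE NonDrinking was below the 11 Air Drinking arrays (10.60 to 11.26, median 10.96) by a difference of -0.48 (SE 0.10, adjusted p = 0.00169), the 1 fall among the 18 calls. Against Air NonDrinking (10.08 to 11.09, median 10.89) the difference of CIE NonDrinking was -0.40 (adjusted p = 0.0102), just outside the threshold. With the gene's probesets averaged, the difference from Air Drinking was -0.20 (adjusted p = 0.1). CIE Drinking minus Air Drinking was 0.19 (95% interval -0.01 to 0.39). The drinking effect averaged 0.37 (SE 0.07, adjusted p = 0.0014), and the interaction of vapor and drinking was 0.59 (SE 0.14, adjusted p = 0.00497).

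**Figure D2:**
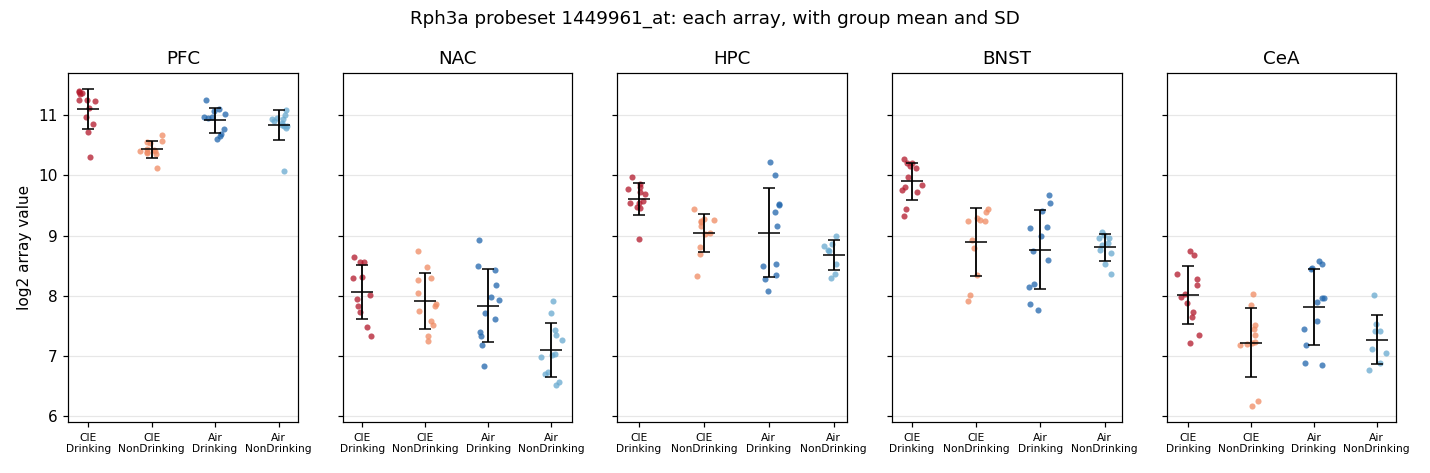
Log2 array value of Rph3a probeset 1449961_at in each array (points) by group, with the group mean and SD (bars), in 5 brain regions. CIE NonDrinking has the lowest mean in PFC (median 10.41), Air NonDrinking the lowest in NAC (median 7.02), and CIE Drinking stands above the other groups in BNST (median 9.91).

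The CIE NonDrinking minus Air NonDrinking values of Rph3a 1449961_at, neither past the threshold, had opposite signs in PFC (-0.40) and NAC (0.81). The PFC minus NAC difference, tested in 1 fit over all regions, was -1.21 (SE 0.26, adjusted p = 0.00226, against 0.686% of all probesets). Probeset 1434635_at gave no call in any region. It differed by 0.08 in PFC between CIE Drinking and CIE NonDrinking and by 0.26 in BNST between CIE Drinking and Air Drinking.

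Complexin 2, complexin 1's close relative and abundant at forebrain excitatory terminals, passed in 2 pairs, each with probeset 1421477_at. In the HPC this bright probeset lay at 12.69 to 13.04 (median 12.85) in CIE Drinking arrays and 11.97 to 12.66 (median 12.51) in Air NonDrinking arrays. The groups did not overlap, as for 1.61% of all probesets, and the rise was 0.39 (SE 0.08, adjusted p = 0.00178). In the CeA it lay at 11.22 to 12.17 (median 11.75) in CIE Drinking and 10.65 to 11.76 (median 11.12) in CIE NonDrinking arrays, a rise of 0.57 (adjusted p = 0.00679). Probeset 1455672_s_at of the same gene, which averaged 12.57 in HPC beside 12.62 for 1421477_at, differed by -0.03 in the same HPC arrays and by 0.04 in the CeA arrays. With the gene's probesets averaged, both calls ended (0.12 in HPC, adjusted p = 0.327, and 0.23 in CeA, adjusted p = 0.298).

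Vamp2, the vesicle SNARE, passed once. Its dim probeset 1420833_at lay at 7.37 to 7.87 (median 7.59) in CIE Drinking HPC and 7.15 to 7.59 (median 7.21) in Air NonDrinking HPC, a rise of 0.32 (SE 0.07, adjusted p = 0.00451, or 0.16 and 0.00997 with the gene's probesets averaged) with overlap. Its bright probeset 1420834_at, at 11.94 on average, differed by 0.01 in those arrays.

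Unc13a, with 1 probeset, passed only in the PFC, at 9.72 to 10.12 (median 9.89) in CIE Drinking arrays and 9.57 to 9.83 (median 9.67) in Air Drinking arrays. The rise was 0.21 (SE 0.05, adjusted p = 0.00495). Syt4 passed in no group comparison, and its probeset 1415845_at passed the PFC interaction at -0.26 (SE 0.05, adjusted p = 0.00173). Its PFC means were 11.67 in CIE Drinking, 11.80 in CIE NonDrinking, 11.80 in Air Drinking and 11.68 in Air NonDrinking arrays, so mice with 1 form of ethanol averaged above mice with both or neither.

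Of the 21 probesets 14 passed nowhere, including all of Snap25, Cplx1 and Stx1a. Snap25 1416828_at, a plasma membrane SNARE, lay above 99.7% of probesets or more in each region, and in the HPC averaged 13.44 ± 0.05 in CIE Drinking and 13.48 ± 0.05 in Air NonDrinking arrays (SD, n = 12 and 8). Its difference there was -0.04 (95% interval -0.09 to 0.01). Over its 60 pairs of probeset and comparison, the smallest adjusted p was 0.144, and 7 had an unadjusted p under 0.05. For Cplx1 the smallest was 0.018 over 90 pairs (17 with an unadjusted p under 0.05), and for Stx1a it was 0.0401 over 60 pairs (14 with an unadjusted p under 0.05). The widest Stx1a difference was in the NAC, where both probesets averaged lower in CIE Drinking than in Air Drinking mice, at -0.52 each (adjusted p = 0.0895 for 1437390_x_at and 0.121 for 1448366_at).

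The comparison of CIE Drinking with Air NonDrinking mice, which differ in both treatments, held the most member calls. In the HPC 4 of 21 members rose (Syt1, Rph3a, Cplx2 and Vamp2, 1 probeset each) and none fell, against 3.63% of all probesets called. Of those 1615 probesets, 1332 were higher in CIE Drinking mice. In the NAC and the BNST 1 member rose in each (Rph3a), against 2.71% and 1.22% of all probesets, and in the CeA 1 member rose (Syt1), against 1.86%. In the PFC 0 of 21 passed by limma against 0.722%, with 7 at an unadjusted p under 0.05. The median difference over the 21 members stayed near 0, at 0.06 in PFC, -0.04 in NAC, 0.04 in HPC, 0.02 in BNST and -0.04 in CeA, beside -0.02 over all probesets in both HPC and CeA.

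**Figure D3:**
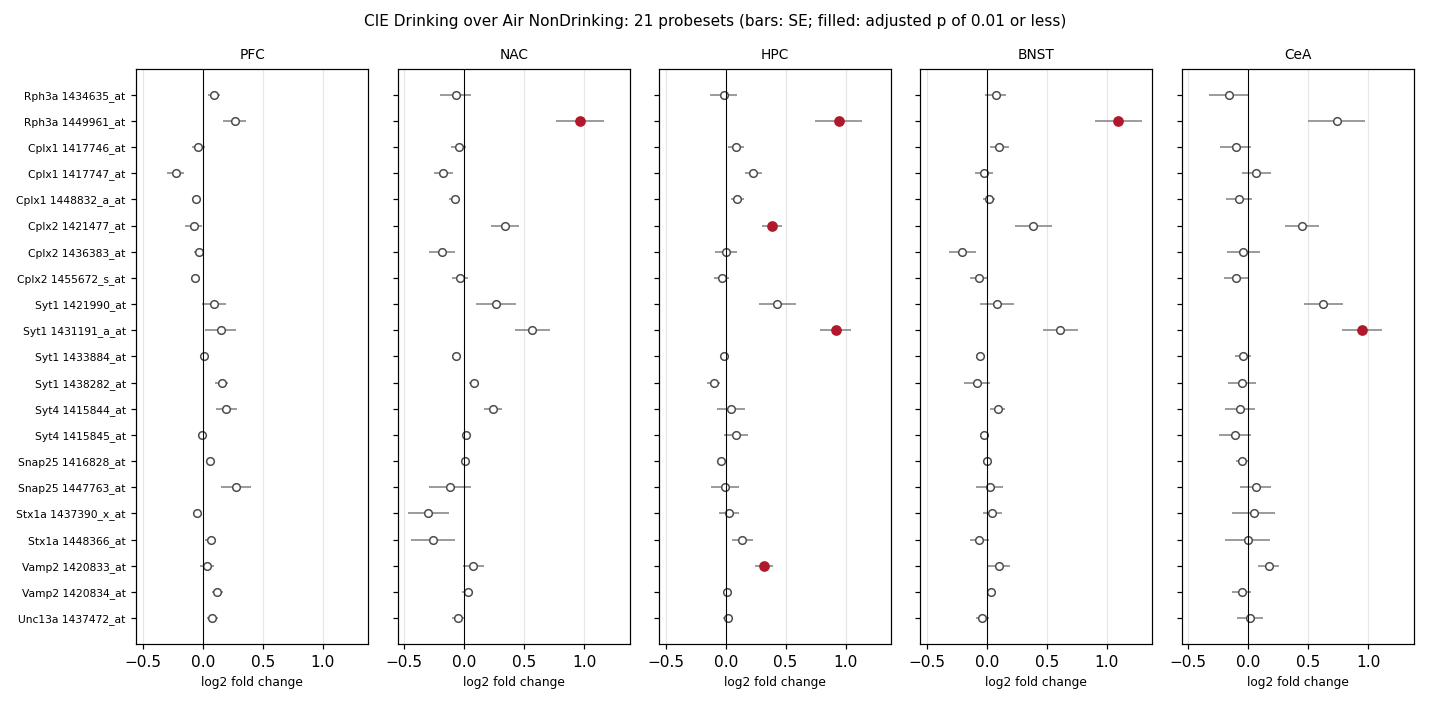
Log2 fold change of CIE Drinking over Air NonDrinking mice for 21 probesets of 9 release genes, with SE bars, in 5 brain regions; filled points passed an adjusted p of 0.01. The 7 filled points are all to the right of 0, at 0.32 to 1.09, and no probeset passed in PFC.

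Of the single-treatment comparisons, CIE Drinking against Air Drinking asks what vapor added in drinking mice, together with the higher ethanol intake that the study reports after vapor. It gave 1 member call each in PFC (Unc13a, against 1.87% of all probesets), HPC (Syt1, 1.23%), BNST (Rph3a, 0.943%) and CeA (Syt1, 0.177%), and 0 in NAC (0.282%, with 9 at an unadjusted p under 0.05). CIE Drinking against CIE NonDrinking asks what drinking added after vapor, together with the shorter time since the last ethanol in Drinking mice. It gave 1 call each in PFC (Rph3a, 1.87%), HPC (Syt1, 0.0832%) and BNST (Rph3a, 0.401%), 3 in CeA (2 of Syt1 and 1 of Cplx2, 1.64%) and 0 in NAC (0.02%, with 7 at an unadjusted p under 0.05). In HPC 37 of 44463 probesets passed, 36 of them higher in CIE Drinking. Drinking and time since the last ethanol cannot be told apart where Drinking and NonDrinking mice are compared, nor in the drinking term. Vapor and intake cannot be told apart between the Drinking groups.

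Vapor without drinking, and drinking without vapor, gave no member call. For CIE NonDrinking against Air NonDrinking, 0 of 21 members passed by limma in PFC, where 1.26% of all probesets did, and 0 passed in the other regions, where 0% of probesets did. At an unadjusted p under 0.05 there were 8 in PFC, 2 in NAC, 2 in HPC, 0 in BNST and 7 in CeA. For Air Drinking against Air NonDrinking, 0 members passed in any region, against 1.4% of all probesets in PFC and 0% elsewhere, with 9, 3, 4, 5 and 3 at an unadjusted p under 0.05 in PFC, NAC, HPC, BNST and CeA. CIE NonDrinking against Air Drinking gave the 1 Rph3a fall in PFC (against 1.69%) and 0 members elsewhere, where at most 0.00222% of probesets passed; 3 CeA members and none in NAC, HPC or BNST had an unadjusted p under 0.05. Of the terms, drinking passed for 1 member in PFC (against 1.35%) and 1 in CeA (1.14%), vapor for 1 in HPC (1.2%), and the interaction for 2 in PFC (2.92%).

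In the CeA all 21 members averaged lower in CIE NonDrinking than in Air NonDrinking mice, from -0.41 to -0.05 with a median of -0.16, beside -0.01 over all probesets, and none passed (smallest adjusted p = 0.541). In CIE Drinking against CIE NonDrinking mice 20 of 21 were positive, with a median of 0.17. The comparisons share the CIE NonDrinking arrays. In the PFC the matching medians were 0.03 and 0.00. For CIE NonDrinking against Air NonDrinking, PFC minus CeA passed for 5 members, against 2.55% of all probesets: Syt4 1415844_at at 0.52 (adjusted p = 0.00921), Syt4 1415845_at at 0.42, Unc13a at 0.34, Syt1 1433884_at at 0.21 and Snap25 1416828_at at 0.18 (0.06 in PFC and -0.12 in CeA). Other PFC minus CeA differences passed for Syt1 1421990_at and Cplx2 1421477_at in CIE Drinking against Air Drinking (-0.73 and -0.59, against 4.27% of all probesets) and for Syt1 1421990_at in CIE Drinking against CIE NonDrinking (-1.07, against 1.85%). PFC minus HPC passed for Cplx1 1417747_at in CIE Drinking against Air NonDrinking (-0.46, against 3.28%).

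**Figure D4:**
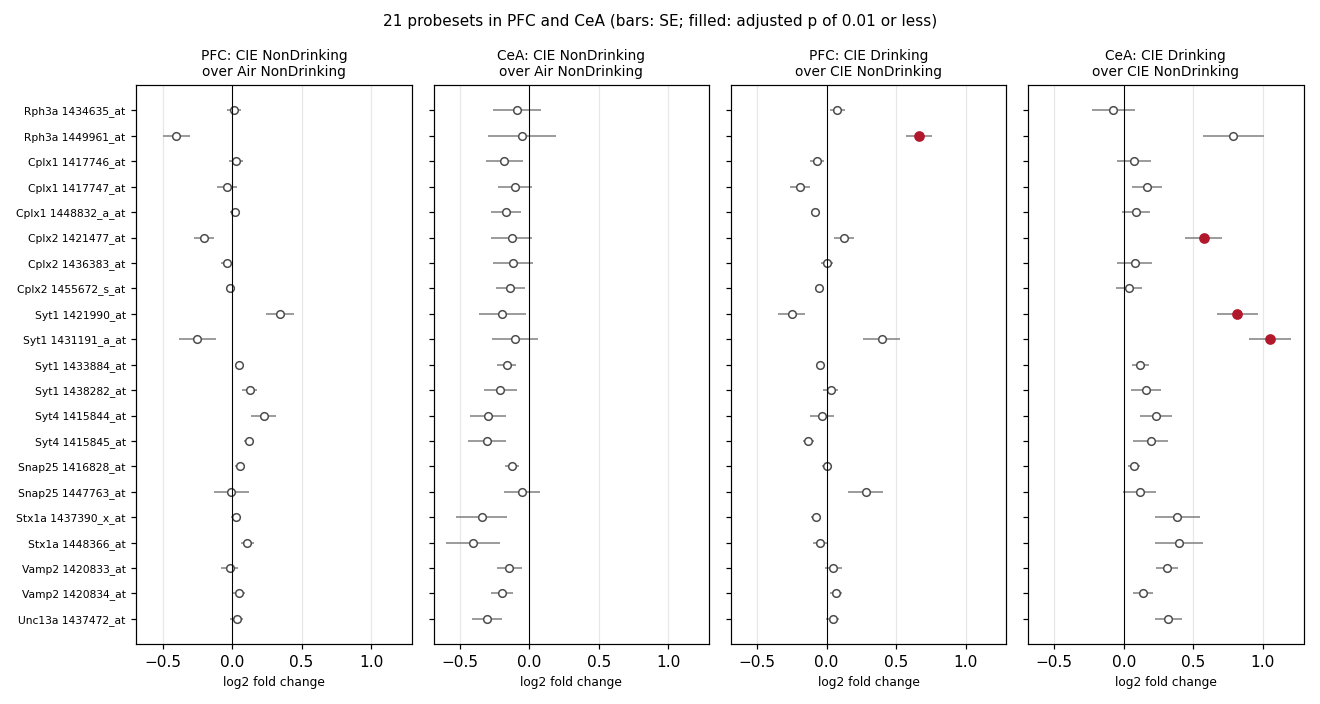
Log2 fold change for 21 probesets in PFC and CeA, with SE bars, for CIE NonDrinking over Air NonDrinking and for CIE Drinking over CIE NonDrinking; filled points passed an adjusted p of 0.01. In CeA every point of the first comparison lies below 0, none filled, and 20 of 21 points of the second lie above 0, 3 filled.

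Cell type markers were read beside the CeA values, by the brightest probeset of each gene unless another is named. The 5 measured choroid plexus markers were at or above the 95th percentile of probesets in CeA, and their mean level per array ran from 9.39 to 13.54 in CIE Drinking, 10.11 to 13.43 in CIE NonDrinking, 8.93 to 13.13 in Air Drinking and 9.78 to 13.30 in Air NonDrinking. The median marker difference was 0.78 for CIE NonDrinking against Air NonDrinking and -0.80 for CIE Drinking against CIE NonDrinking, with 0 of 5 called. The 8 neuronal markers had medians of -0.21 and 0.11 in these comparisons, with 0 called (over every probeset of the marker lists, Map2 1421328_at alone was called, at 0.47 in the second), and means per array of 10.91 to 11.65 in CIE Drinking, 10.59 to 11.52 in CIE NonDrinking and 11.00 to 11.58 in Air NonDrinking. The 5 excitatory cortical markers differed by 0.80 between CIE Drinking and Air Drinking CeA, and the 5 central extended amygdala markers by -0.74, with 0 called. In a dissected tissue fewer cells of a type and less RNA per cell cannot be told apart, and the part of these markers in the member values was not tested.

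Outside the CeA some of the 133 marker probesets were called beside the members. In HPC, CIE Drinking against Air NonDrinking, 4 were, all higher: Gad2 1421978_at of inhibitory neurons by 1.05, Mbp 1425263_a_at of oligodendrocytes by 0.49, Cx3cr1 1450020_at of microglia by 0.34 and the neuronal Map2 1421327_at by 0.30. Of these only Cx3cr1 was the brightest probeset of its gene, and Map2 1421327_at averaged 5.51, below the HPC array median of 6.91. Against Air Drinking HPC the same probesets of Gad2, Mbp and Cx3cr1 were higher in CIE Drinking by 0.79, 0.48 and 0.30. The 8 neuronal markers there, by the brightest probeset, had a median difference of 0.00 and means per array of 11.39 to 11.85 in CIE Drinking and 11.42 to 11.85 in Air NonDrinking. Gad2 1421978_at was also higher beside the Rph3a calls, by 1.02 in NAC and 0.69 in BNST against Air NonDrinking and by 0.66 in BNST against Air Drinking. It was not the brightest Gad2 probeset in either region, and no other inhibitory neuron probeset was called in these comparisons. Map2 1421328_at, also not the brightest of its gene, was higher by 0.37 in NAC and 0.36 in BNST against Air NonDrinking. In NAC Cx3cr1 was higher by 0.23 and Slc1a3 1443749_x_at of astrocytes, not the brightest of its gene, by 0.20. In BNST Kl of choroid plexus was lower by a difference of -0.62 against Air Drinking. Kl averaged 5.57 there, below the BNST array median of 6.89.

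In PFC, CIE Drinking against Air Drinking, the comparison of the Unc13a call, the astrocyte marker Gfap was higher in 3 probesets (0.53, 0.65 and 0.89) and Prox1 1457432_at of hippocampal neurons by 0.38, while Cux2 of excitatory neurons (-0.67) and Dlx1 of inhibitory neurons (-0.15) were lower. Prox1 1457432_at averaged 4.43 and Gfap 1426509_s_at (0.65) 5.75, both below the PFC array median of 6.11. In CIE Drinking against CIE NonDrinking PFC, beside the Rph3a rise, 5 were called, with Gfap 1440142_s_at at 0.70, Gad2 1421978_at at 0.52, Prox1 1457432_at at 0.28, Gad1 1416562_at at -0.37 and Slc1a3 1426341_at at -0.39. Of these 5 only the Gfap probeset was the brightest of its gene. Mbp 1425263_a_at was at -0.62 beside the Rph3a fall, and 14 marker probesets passed the PFC interaction. Among lists with no call, the 6 striatal projection neuron markers differed by 0.48 in PFC and -0.76 in BNST between CIE Drinking and Air Drinking, and the 5 excitatory cortical markers by -0.63 in NAC between CIE Drinking and Air NonDrinking. The part of these markers in the member values was not tested. Each dissection was read against regional markers by percentile within the region. The 5 hippocampal markers lay at percentiles of 72.5 to 93.5 in HPC and at 63.1 or less elsewhere, and the 6 striatal ones at 81.7 or more in NAC and 24.2 to 97.0 elsewhere. The 5 central extended amygdala markers lay at 73.7 to 83.0 in CeA and 69.6 to 95.4 in BNST, ranges that overlapped the 49.1 to 90.2 of NAC.

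For the 17 calls on a gene with more than 1 probeset, the brightest other probeset of the gene differed by -0.07 to 0.26 in the same arrays. The probeset that passed had been picked for its call in these arrays, and Syt1 1433884_at lies at the top of the signal range, so these values are a description with no test. With all probesets of a gene averaged, 9 of the 23 calls on comparisons and terms passed. The 9 include Unc13a, whose 1 probeset is its own average. They also count the CeA Syt1 rise against CIE NonDrinking for both 1431191_a_at and 1421990_at, which share 1 average. For Syt1 the HPC rise against Air NonDrinking was then 0.31 (adjusted p = 0.00463) and the CeA rise against CIE NonDrinking 0.54 (adjusted p = 0.00174). Those against Air Drinking and CIE NonDrinking in HPC (0.22 and 0.23, adjusted p = 0.0515 and 0.0717), against Air NonDrinking and Air Drinking in CeA (0.37 and 0.38, adjusted p = 0.0859 and 0.0642) and both Syt1 terms ended. For Rph3a the BNST rise was 0.70 against Air Drinking (adjusted p = 7.6e-04), 0.58 against Air NonDrinking (adjusted p = 0.00842) and 0.59 against CIE NonDrinking (adjusted p = 0.0104), and the PFC rise against CIE NonDrinking was 0.37 (adjusted p = 3.62e-04). The PFC terms were 0.19 for Rph3a and drinking (adjusted p = 0.0139) and -0.27 for Syt4 and the interaction (adjusted p = 0.025).

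**Figure D5:**
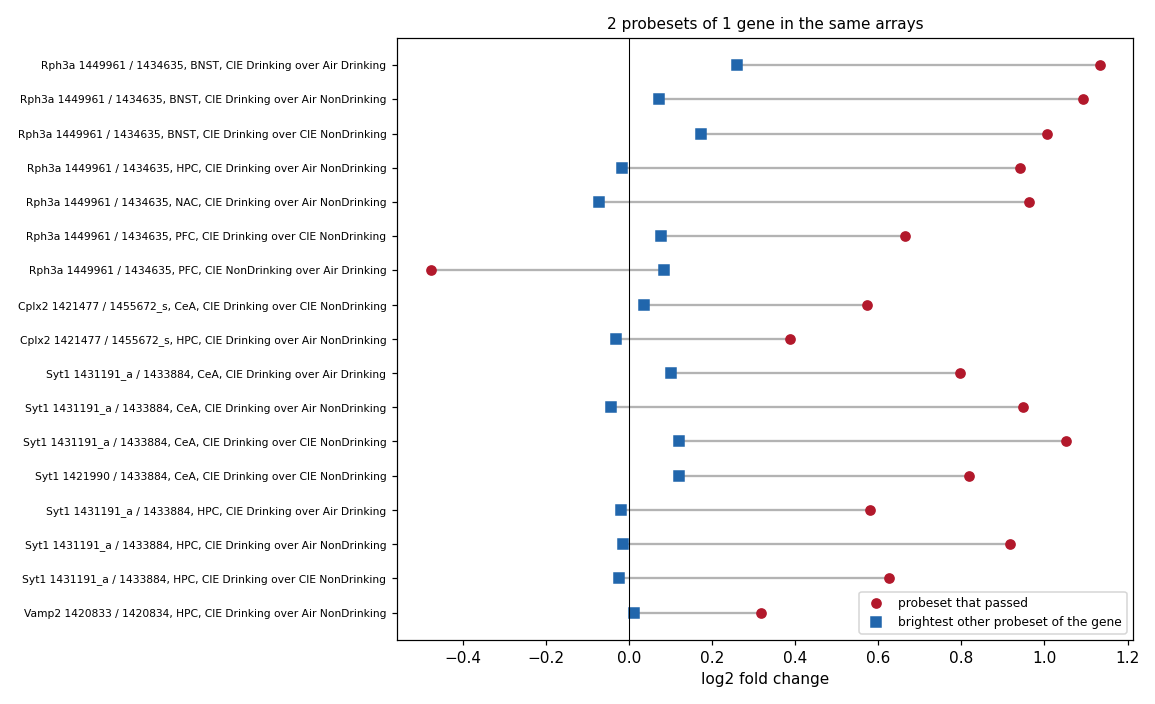
Log2 fold change of each probeset that passed (circles) and of the brightest other probeset of the same gene (squares) in the same arrays, for 17 calls. The circles lie at -0.48 and from 0.32 to 1.13, and the squares lie between -0.07 and 0.26.

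Probesets that gave calls were also set against each other within groups, in 9 relations of different genes per region. With group means removed, the r of these relations ran from -0.15 to 0.74 in PFC, 0.28 to 0.84 in NAC, 0.13 to 0.75 in HPC, -0.10 to 0.72 in BNST and 0.17 to 0.68 in CeA. Among the highest, Syt1 1431191_a_at and Vamp2 1420833_at had r = 0.81 and rho = 0.68 over 47 NAC arrays (permutation within groups, adjusted p = 3.42e-05 for r and 3.71e-05 for rho over 130 relations), and r = 0.73 without the 2 arrays farthest from the median. Syt1 1431191_a_at and Cplx2 1421477_at had r = 0.74 and rho = 0.64 over 47 PFC arrays (adjusted p = 3.42e-05 and 3.71e-05), and 0.69 without 2 arrays. Syt1 1431191_a_at and the brightest Syt1 probeset 1433884_at had r = 0.18 in PFC, 0.07 in NAC, 0.07 in HPC, -0.17 in BNST and 0.41 in CeA, while 1431191_a_at and 1421990_at of the same gene had 0.28, 0.91, 0.81, 0.80 and 0.88. Rph3a 1449961_at and Syt1 1421990_at had r = -0.15 in PFC, and Rph3a 1449961_at had -0.01 with Cplx2 1421477_at and -0.10 with Vamp2 1420833_at in BNST. Over the 9 relations the median r was 0.61 in NAC, 0.55 in HPC, 0.49 in BNST, 0.48 in PFC and 0.41 in CeA, and 6 to 8 of the 9 had an adjusted p of 0.05 or less in each region. These probesets were picked for their calls, and no matching share was computed over pairs of other probesets. Whether the members vary together more than other genes was thus not tested. The genes most alike to Syt1 1431191_a_at in HPC, given next, were picked as the highest of 18063. Their r is therefore no measure against these 9 relations. Over all 18063 other genes, read by their brightest probeset, the most alike to Syt1 1431191_a_at over the 42 HPC arrays were Megf11 (r = 0.94), Zfp458 (0.94), Sugt1 (0.93), Ppp2r5e (0.92) and Rbfox2 (0.92). With group means removed they were Megf11 (0.91), Ccser2 (0.89), Zfp458 (0.89), Kif3a (0.87) and 5330434G04Rik (0.87).

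The rest of the release pathway was read in 83 further genes, 80 with a probeset. With 1 probeset per gene, the brightest, few passed. In PFC, CIE Drinking against Air Drinking (2.16% of all genes called), Cplx3, a complexin of retinal and some cortical neurons, rose by 0.71, while the SNARE disassembly adaptor Napa fell by 0.12 and Stxbp6, which binds SNAREs, fell by 0.27, among 17 measured SNARE genes. Bsn, the giant active zone scaffold, fell by 0.22, 1 of 16 active zone genes. Against CIE NonDrinking PFC, CIE Drinking was again higher for Cplx3 (0.57) and lower for Napa (-0.12) and Bsn (-0.21). In NAC the active zone gene Rims4 fell by 0.25 in CIE Drinking against Air NonDrinking (0.995% of all genes), and in BNST the SNARE Stx2 fell by 0.16 in CIE Drinking against Air Drinking (0.471%). Among 16 other synaptotagmins and C2 domain genes, Syt6 fell by 0.29 in CIE NonDrinking against Air NonDrinking PFC and rose by 0.33 in CIE Drinking against CIE NonDrinking PFC, against 0.77% and 1.2% of all genes called. In PFC of Air Drinking against Air NonDrinking mice (1.32%) Slc17a6, a vesicular glutamate transporter, rose by 0.54, Synpr by 0.38 and Stxbp6 by 0.31. In BNST Syn2, a synapsin that tethers vesicles, rose by 0.36 in CIE Drinking against Air NonDrinking (0.332%). Of the treatment terms, Sv2a passed for vapor in PFC at 0.09 (0.605% of all genes), and 6 genes passed the PFC interaction (3.04%): Cplx3 at 1.02, Syt6 at 0.45, Bsn at -0.32, Stxbp6 at -0.54, Syt17 at -0.71 and Slc17a6 at -0.74. None of the 11 measured endocytosis genes passed by limma in this reading.

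Over every probeset of those genes, 81 calls were made in 27 genes over the 6 comparisons, 64 higher and 17 lower, which was 1.37% of 5910 pairs of probeset and comparison, against 0.768% over all probesets, and 15 of the 81 were the brightest probeset of the gene. Syn2 1449030_at rose by 0.96 in HPC against Air NonDrinking (adjusted p = 1.1e-04), by 1.05 in CeA against CIE NonDrinking (adjusted p = 1.2e-04) and by 0.75 in NAC against Air NonDrinking (adjusted p = 2e-04). Dnm3, a dynamin that cuts vesicles from the membrane, rose by 0.61 in NAC through 1436875_at, and Snap91, a clathrin adaptor, by 0.41 in NAC through 1437817_at, both against Air NonDrinking mice. In CeA, CIE Drinking against CIE NonDrinking, all 12 called pathway probesets were higher and 0 were the brightest of their gene. That comparison called 690 of all probesets higher and 31 lower.

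The members' levels were ranked within each region, since regions were normalized apart. Snap25 1416828_at and Syt1 1433884_at were above the 99th percentile in every region, and Cplx1 1448832_a_at at or above 98.8. Rph3a ranked differently by region and probeset. Probeset 1449961_at was at the 93.8th percentile in PFC, 77.2 in BNST, 76.6 in HPC, 60.6 in CeA and 59.0 in NAC. Unc13a was at 87.5 in PFC, 82.5 in HPC, 76.7 in NAC, 70.2 in BNST and 67.6 in CeA. The dim Snap25 probeset 1447763_at was at the 18.8th percentile in PFC and 58.2 to 62.2 elsewhere.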

How the data were processed

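The deposited table holds log2 values that the authors made from Affymetrix Mouse Genome arrays by RMA, with quantile normalization within each region, ComBat adjustment for hybridization batch and removal of outlier arrays. Batch was not given in the sources used here, so no within-batch value was computed and batch could not be set apart from group. Of 45037 probesets, 34945 have 1 gene symbol, 932 several and 9160 none. A mean per group was fitted in each region with limma 3.58.1 in R 4.3.3, with 6 comparisons and 3 terms, Benjamini-Hochberg adjustment over all probesets and a threshold of 0.01. Regional differences came from 1 fit over 43893 probesets. Correlations were tested by permutation within groups with 100000 resamples. The fit was tested on simulated data. Arrays have no read depth, and their number limits the precision. The labels number 51 mice across regions, each in 1 group. Same-numbered arrays of different regions shared little deviation on average (consensus correlation 0.0146), though single mice varied, from r = -0.49 to 0.47 between PFC and NAC. Genes were named where a probeset passed, the 12 smallest adjusted p-values in full. Members and lists were chosen with earlier results of these data known. The within-gene probeset values and the marker probesets named were chosen after seeing the data.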

Additional observations from a re-analysis of the deposited data

Results flagged for a closer look

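Only groups of 8 or 10 arrays were screened for single arrays, which were Air NonDrinking HPC, CeA and BNST. No CIE Drinking group and no PFC or NAC group was screened. Of the 63 sets of values of 1 probeset in 1 such group, 2 held an array apart from the rest. The measure was the gap to the nearest neighbour over the set's range. Chance flags about 1 in 20 such sets. Syt1 1438282_at had its highest BNST Air NonDrinking array at 9.64, with the nearest at 9.26 (gap over range 0.523). Cplx1 1417747_at had its lowest CeA Air NonDrinking array at 7.37, with the nearest at 7.96 (gap over range 0.618).

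Of 504 differences tested between the PFC response and that of another region, 11 passed. No share over all probesets was computed for all these contrasts together, so the count is a description. Rph3a 1449961_at differed by -1.21 between PFC and NAC for CIE NonDrinking against Air NonDrinking (0.686% of all probesets passed). Cplx1 1417747_at differed by -0.46 between PFC and HPC for CIE Drinking against Air NonDrinking (3.28% of all probesets passed), with -0.23 in PFC and 0.23 in HPC. The other 9 set PFC against CeA. For CIE Drinking against Air Drinking (4.27%), Cplx2 1421477_at differed by -0.59 and Syt1 1421990_at by -0.73. For CIE NonDrinking against Air NonDrinking (2.55%), Syt1 1433884_at differed by 0.21, Syt4 1415844_at by 0.52, Syt4 1415845_at by 0.42, Snap25 1416828_at by 0.18 and Unc13a by 0.34. For CIE Drinking against CIE NonDrinking (1.85%), Syt1 1421990_at differed by -1.07, with -0.25 in PFC and 0.82 in CeA. For CIE Drinking against Air NonDrinking (2.24%), Syt1 1431191_a_at differed by -0.80.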

How the results depend on the processing

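No call changed sign. Of the 23 calls, all 23 passed with trended and robust variances, with array quality weights and with quantile normalization again, 22 without dim probesets, and 16 of 18 with only the compared groups in the fit, where Syt1 1431191_a_at missed against Air Drinking in HPC and CeA. With all probesets of a gene averaged 9 of 23 passed, with Unc13a (1 probeset) unchanged by averaging and 1 CeA Syt1 average counted for 2 probesets. The calls of a gene in a comparison, summed over the 6 comparisons, were then 0 in NAC, 2 in HPC and 1 in CeA, in place of 1, 6 and 4 by single probesets. Dim filtering, renormalization, array weights and an adjusted p of 0.05 gave 5, 6, 10 and 14 comparison calls in PFC, in place of 3 (2 higher, 1 lower), with 3, 4, 6 and 8 lower. In NAC array weights, 2-group fits and 0.05 gave 2, 2 and 4 in place of 1. In BNST weights gave 10 (7 higher, 3 lower) and 0.05 gave 6, in place of 3 (0 lower), and in CeA 0.05 gave 10 in place of 5. For terms, weights gave 1 in NAC, 2 in HPC and 4 in BNST, in place of 0, 1 and 0, and 0.05 gave 7, 1, 5, 2 and 3 in PFC, NAC, HPC, BNST and CeA, in place of 3, 0, 1, 0 and 1. With mouse number as a random block, the PFC differed from HPC for 2 members in place of 1 and from NAC, BNST and CeA for 1, 0 and 10, in place of 1, 0 and 9. The dim filter gave 2 for HPC and 1 for BNST, and 0.05 gave 2, 2, 7 and 21 for NAC, HPC, BNST and CeA. The cause of these changes was not tested.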
